A study of Mus musculus with 6 samples.

Results

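The JAK kinases, the STAT5 and STAT6 transcription factors and the CIS/SOCS feedback inhibitors were followed in activated CD4+ T cells with and without *Abat*. The group was defined by name, as *Jak1*, *Jak2*, *Jak3*, *Stat5a*, *Stat5b*, *Stat6*, *Cish*, *Socs1*, *Socs2* and *Socs3*. All 10 genes were found among the 54525 genes of the deposited count table, and all 10 had enough counts to be tested, as did 13605 genes in all. The study compared 3 WT with 3 *Abat* cKO samples. The cKO mice carried a floxed *Abat* allele, derived from a EUCOMM targeted allele through a Flippase strain, and *Cd4*-Cre, which acts from the *Cd4*-expressing stage of T cell development and so in CD4+ and CD8+ T cells alike. WT mice are given as C57BL/6, with no mention of Cre or of littermate controls, and the labels give strain C57BL/6N and an age of 6 to 8 weeks for both genotypes. Naive CD4+ T cells of either genotype were isolated from spleen and lymph nodes with a kit that removes other cells, and were stimulated for 36 h with plate-bound antibodies to CD3 and CD28 in the presence of IL-2. The cytokine that signals through JAK1, JAK3 and STAT5 was therefore supplied to all 6 cultures.

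Cytokine receptors without kinase activity of their own carry Janus kinases on their cytoplasmic tails. Ligand binding brings the kinases together, they phosphorylate the receptor and each other, and STAT proteins that dock there are phosphorylated, pair and enter the nucleus. In T cells IL-2, IL-7 and IL-15 act mainly through JAK1 and JAK3 on STAT5A and STAT5B, whereas IL-4 acts mainly on STAT6. JAK2 serves other receptors, those of IFN-γ and IL-12 among them. CIS, encoded by *Cish*, and the SOCS proteins are induced by STATs and bind receptors or kinases, which closes a negative feedback loop.

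Dimers of STAT5 bind a palindrome of TTC and GAA with 3 bases between the half-sites, written TTCNNNGAA. The RefSeq promoter windows of the members, 250 bases before to 50 bases after the start site on GRCm38.p6, were searched for it, and the motif reads the same on both strands. Of the 10 genes, 9 had a window, *Socs2* being the one without, and *Cish* and *Socs3* held matches. Their windows are shown, read 5′ to 3′ along the gene, because these are the only 2 member promoters with the motif. Capitals mark each match.
Cish, chr9:107296409-107296708, plus strand: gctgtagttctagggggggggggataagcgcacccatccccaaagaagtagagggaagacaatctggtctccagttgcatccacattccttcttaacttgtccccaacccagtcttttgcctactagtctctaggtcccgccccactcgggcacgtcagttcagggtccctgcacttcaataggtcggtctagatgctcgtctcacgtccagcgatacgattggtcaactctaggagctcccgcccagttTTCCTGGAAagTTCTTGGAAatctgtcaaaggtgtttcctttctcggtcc
Socs3, chr11:117969317-117969616, minus strand: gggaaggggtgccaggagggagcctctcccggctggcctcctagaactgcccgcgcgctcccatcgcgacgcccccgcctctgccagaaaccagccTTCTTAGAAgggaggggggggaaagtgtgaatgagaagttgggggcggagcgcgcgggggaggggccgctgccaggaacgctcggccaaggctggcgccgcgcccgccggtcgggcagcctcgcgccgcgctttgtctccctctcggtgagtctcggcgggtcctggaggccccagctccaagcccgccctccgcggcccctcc
The *Cish* window held 2 matches, TTCCTGGAA at chr9:107296659-107296667 and TTCTTGGAA at chr9:107296670-107296678. The *Socs3* window held TTCTTAGAA at chr11:117969512-117969520. Of all 32851 promoter windows, 8.30% held at least 1 match and 0.457% held 2 or more. The palindrome with 1 more base between its half-sites, which STAT6 prefers, was in 6.95% of all windows and in 0 of the 9 members with a window. These matches describe letters in a window, and binding was not measured.

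Counts over genes summed to between 19566016 and 24396746 per library, and the spike-in controls took 0.817% to 1.003% of all counts. Levels are given as CPM, a gene's counts relative to the TMM-scaled total of its library, where TMM is edgeR's correction for library composition. *Abat* itself had between 0 and 7 counts in every library, too few to check the genotype labels. The T cell markers *Cd3d*, *Cd3e*, *Cd3g*, *Cd247* and *Cd4* were high in all 6 samples (summed level 1395 to 1425 CPM in WT and 1207 to 1236 CPM in *Abat* cKO), and 3 of the 5 were lower in *Abat* cKO. Summed B cell markers fell from 240 to 265 CPM in WT to 99.9 to 104 CPM in *Abat* cKO, with 6 of 7 tested markers lower and most of the sum from *Ighm*. Both CD8+ T cell markers were lower, with a summed level of 7.50 to 24.2 CPM in WT and 5.62 to 6.49 CPM in *Abat* cKO. Of the 4 tested NK cell markers, *Eomes* was lower, with a log2 fold change of -1.84 (edgeR adjusted p = 0.00889). *Eomes* had 19.0, 21.6 and 4.99 CPM in WT and 3.83, 4.50 and 4.47 CPM in *Abat* cKO. The 3 NK cell markers that were higher were low, and passed the filter only through the cKO samples (list summed 5.66 to 24.1 and 9.13 to 9.73 CPM). The tested γδ T cell marker *Trdc* was higher (list summed 2.13 to 4.0 and 6.40 to 7.02 CPM), and the 6 myeloid markers summed to at most 2.09 CPM. No marker was at 0 in all libraries. The isolation kit would remove B, CD8+ T, NK and γδ T cells, and the part of any that remained in the results below was not tested, and in bulk RNA fewer cells of a type and less RNA per cell cannot be told apart. WT and *Abat* cKO cells were activated and harvested separately, and the effects of culture, mouse line and genotype cannot be told apart. WT replicate 3 and *Abat* cKO replicate 1 stood apart from their groups on the second principal component, which held 17.7% of the variance. WT replicate 3 was the lowest WT sample for 8 of the 10 genes, and *Abat* cKO replicate 1 the lowest cKO sample for 7. How often this held over all tested genes was not counted, so it may not be particular to the 10.

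In *Abat* cKO cells 7 of the 10 genes rose, 2 fell and 1 was not called. Of all tested genes, 31.5% were called by edgeR with a threshold of 0.05 on the adjusted p, 18.1% as higher and 13.4% as lower. Among the 7729 tested genes with an average level at or above that of the lowest member, 38.3% were called. *Jak2*, *Jak3*, *Stat5a*, *Stat5b*, *Cish*, *Socs1* and *Socs3* rose, *Jak1* and *Socs2* fell, and *Stat6* was not called. The median log2 fold change of the 10 genes, which were chosen with earlier results of these data known, was 0.46, against 0.0046 over all genes tested. For all 10 genes the groups did not overlap, 7 with the cKO samples above and 3 with them below. That held for 45.9% of all tested genes, 25.4% above and 20.5% below. The changes were moderate: with a test against a 1.5-fold change, none of the 10 passed, whereas 624 of all tested genes did.

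**Figure D1:**
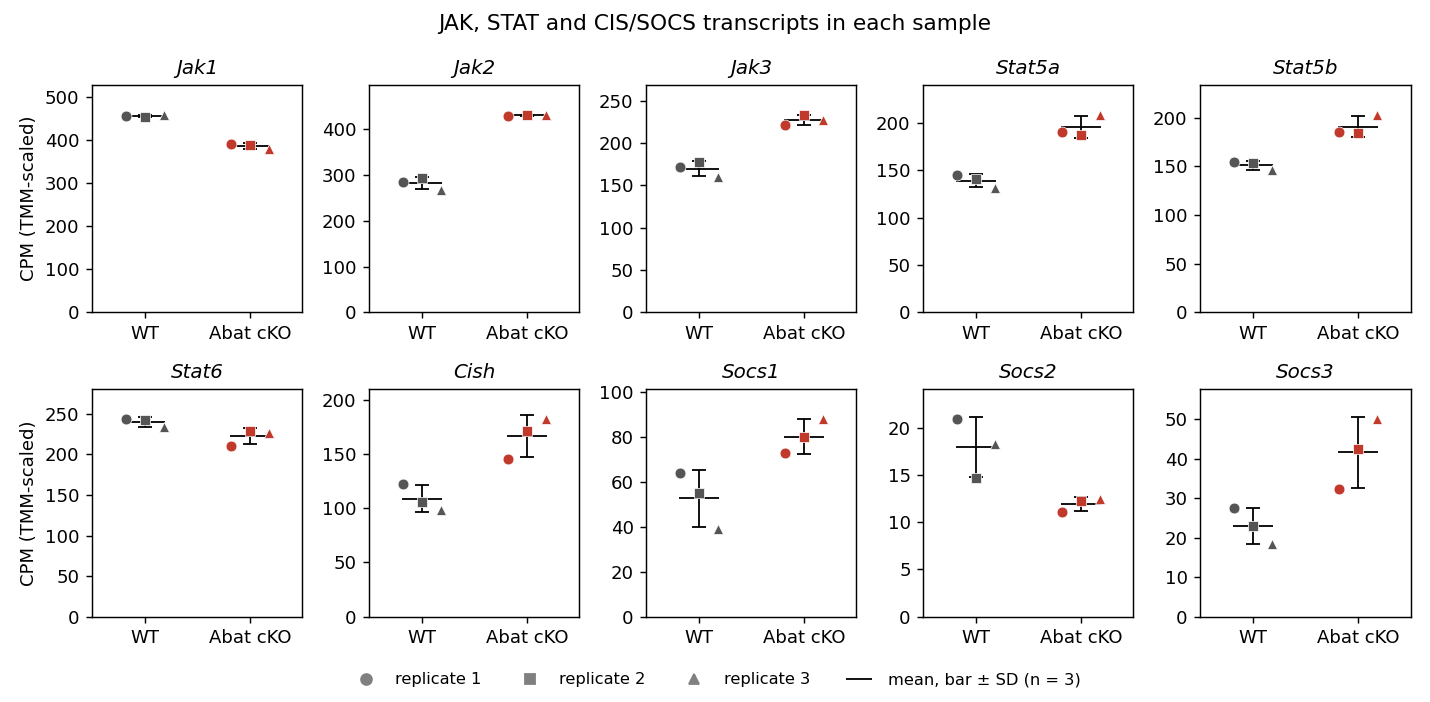
TMM-scaled CPM of each of the 10 genes in the 3 WT and 3 *Abat* cKO samples, with the group mean and SD, each vertical axis starting at 0. In each panel the WT and *Abat* cKO points do not overlap, and *Jak2* goes from 268 to 294 CPM in WT to 429 to 432 CPM in *Abat* cKO.

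The 3 Janus kinases moved in opposite directions. *Jak1*, the kinase shared by most cytokine receptors of T cells, lies at chr4:101152367-101265282 of GRCm38 and had 455, 455 and 459.5 CPM in WT replicates 1 to 3 and 390.1, 390.0 and 379.8 CPM in *Abat* cKO. The samples of a genotype lay close together, with coefficients of variation of 0.563% and 1.53%. *Jak1* fell by 15.3% (log2 fold change -0.24, standard error 0.04, edgeR adjusted p = 0.000759). Scaled to the spike-in controls, its call was lost (log2 fold change -0.29, edgeR adjusted p = 0.0799).

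*Jak2*, at chr19:29251828-29313080, had 286, 294 and 268 CPM in WT and 429, 431 and 432 CPM in *Abat* cKO. The 3 cKO samples were nearly identical, and the lowest of them was far above the highest WT sample. *Jak2* rose 1.52-fold (95% interval 1.42 to 1.63, log2 fold change 0.61, standard error 0.04, edgeR adjusted p = 4.1e-06) and ranked 234th of 13605 genes by p. *Jak3*, the partner of the common γ chain, had 171, 178 and 160.5 CPM in WT and 222, 234 and 227 CPM in *Abat* cKO. It rose 1.34-fold (95% interval 1.24 to 1.44), with no overlap between the genotypes (log2 fold change 0.42, standard error 0.05, edgeR adjusted p = 0.000112). *Jak3* lies at chr8:71676296-71690575, and 4.52% of the 150-base windows of its transcripts also occur in transcripts of *Insl3*, so a small share of its counts is uncertain.

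*Jak1* took 47.4% ± 1.22 of all counts of the JAK family in WT and 35.2% ± 0.421 in *Abat* cKO (SD, n = 3). *Jak2* took 29.3% ± 0.762 and 39.2% ± 0.364, and *Jak3* 17.6% ± 0.583 and 20.7% ± 0.415 (SD, n = 3). These shares do not depend on how libraries are scaled, but they are parts of a whole, so a rise of some lowers the rest. *Tyk2* took 5.71% ± 0.162 in WT and 4.82% ± 0.0578 in *Abat* cKO (SD, n = 3). In CPM, the groups did not overlap for 45.9% of all tested genes. In none of the 4 kinases did the shares of the genotypes overlap. The exact permutation test over samples gave p = 0.1 for each, two-sided, which is the smallest value that 3 against 3 samples allow (adjusted p = 0.118 over the 13 ratios and shares tested). *Tyk2*, the kinase of the IL-12 and type I interferon receptors, was not called, with a log2 fold change of -0.05 (edgeR adjusted p = 0.39).

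**Figure D2:**
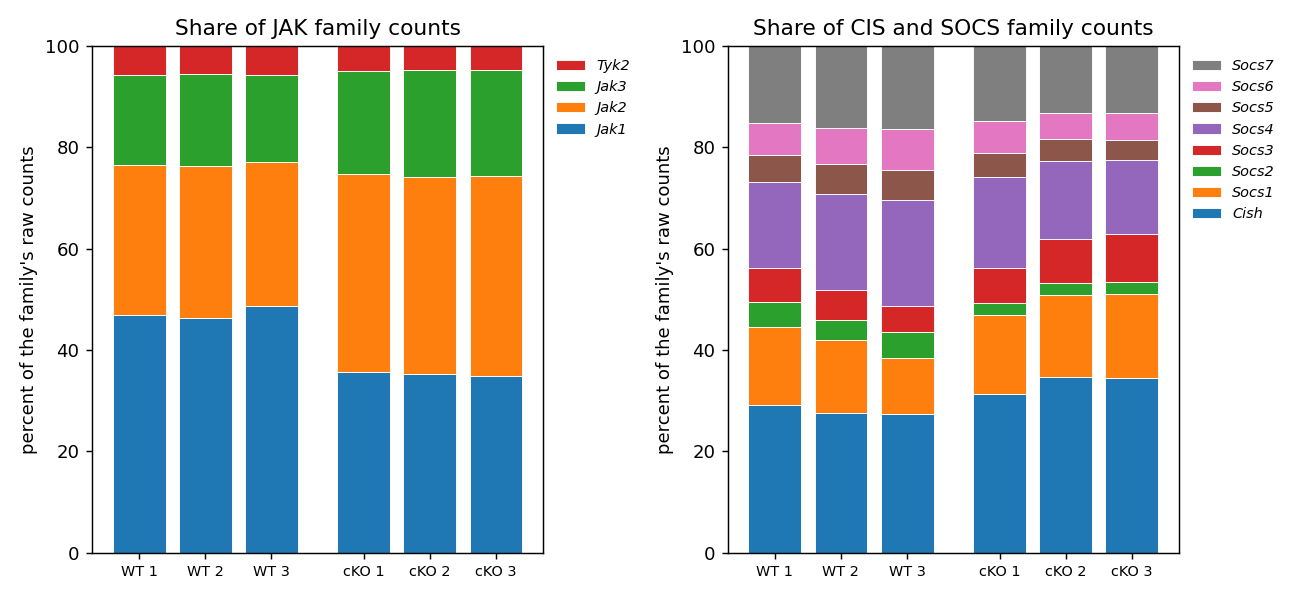
Percent of the raw counts of the JAK family (left) and of the CIS and SOCS family (right) that each gene took, 1 bar per sample. *Jak1* takes 46.4% to 48.7% in WT and 34.8% to 35.6% in *Abat* cKO, while *Jak2* goes from 28.5% to 29.9% up to 38.9% to 39.6%.

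Per kilobase of exon, the order of *Jak1* and *Jak2* was exchanged between the genotypes. In WT, the level of *Jak1* was 63.2 ± 0.356 CPM per kilobase and that of *Jak2* 56.2 ± 2.57 (SD, n = 3). In *Abat* cKO, *Jak2* was at 85.6 ± 0.340 and *Jak1* at 53.5 ± 0.820 CPM per kilobase (SD, n = 3). The same exchange was seen with the length of the longest transcript, where *Jak1* and *Jak2* were at 93.1 and 56.2 CPM per kilobase in WT and at 78.8 and 85.6 in *Abat* cKO. Below them in WT followed *Stat6* (54.5 CPM per kilobase), *Jak3* (31.8), *Stat5b* (27.3), *Stat5a* (19.5), *Socs1* (18.1), *Cish* (16.9), *Socs3* (7.95) and *Socs2* (1.89). The WT ranges of *Jak2* and *Stat6* overlapped, as did those of *Stat5a*, *Socs1* and *Cish*. With the longest transcript, *Stat6* ranked above *Jak2* in WT, and *Stat5a* above *Stat5b* in both genotypes. The order depends more on the length used for the short genes: per kilobase of coding sequence, *Cish* ranked first in both genotypes, at 141 and 215.9 CPM per kilobase, and *Socs1* was at 82.9 and 126.3. *Jak1* and *Jak2* were then at 132 and 83.2 CPM per kilobase in WT and at 111.8 and 126.8 in *Abat* cKO.

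Both STAT5 genes rose. They are neighbours on chromosome 11, *Stat5b* at chr11:100780731-100850724 on the minus strand and *Stat5a* at chr11:100859351-100885169 on the plus strand, 8626 bases apart. They encode closely related factors with overlapping functions, and 2.21% of the 150-base windows of *Stat5a* transcripts and 3.16% of those of *Stat5b* occur in the other gene, so most reads can tell them apart. *Stat5a* had 144, 141 and 131 CPM in WT and 191, 187 and 209 CPM in *Abat* cKO. *Stat5b* had 155, 153 and 146 CPM in WT and 185, 185 and 203 CPM in *Abat* cKO. For each gene the lowest cKO sample was above the highest WT sample, and replicate 3 was the lowest in WT and the highest in *Abat* cKO. *Stat5a* rose 1.41-fold (95% interval 1.29 to 1.53, log2 fold change 0.49, standard error 0.05, edgeR adjusted p = 8.72e-05). *Stat5b* rose 1.26-fold (95% interval 1.17 to 1.36, log2 fold change 0.34, standard error 0.05, edgeR adjusted p = 0.00059), but did not pass when scaled to the spike-in controls (log2 fold change 0.29, edgeR adjusted p = 0.0786).

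Within a library the pair can be compared directly. The log2 ratio of *Stat5b* to *Stat5a* counts within a library was 0.10, 0.12 and 0.16 in WT and -0.04, -0.02 and -0.04 in *Abat* cKO. All WT ratios were above 0 and all cKO ratios below it, a mean difference of -0.16 (exact permutation p = 0.1, two-sided, the smallest possible with 3 against 3 samples, adjusted p = 0.118 over the 13 ratios and shares), which did not pass. *Stat5a* also overlaps *Stat3* by 72 exon bases on the opposite strand, and whether reads were counted by strand is not given in the sources used here.

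*Stat6*, the main STAT of the IL-4 receptor, lies at chr10:127642986-127660957 and had 244, 242 and 233 CPM in WT and 211, 229.5 and 226 CPM in *Abat* cKO. All cKO samples were below all WT samples, by a small margin. Its log2 fold change was -0.11 (95% interval -0.21 to -0.0091, edgeR adjusted p = 0.0932), which did not pass after adjustment. It was called lower when scaled by library size alone (log2 fold change -0.14, edgeR adjusted p = 0.025) and with both WT replicate 3 and *Abat* cKO replicate 1 left out (-0.10, edgeR adjusted p = 0.0303). Over 15 alternatives its adjusted p ran from 0.025 to 1.

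**Figure D3:**
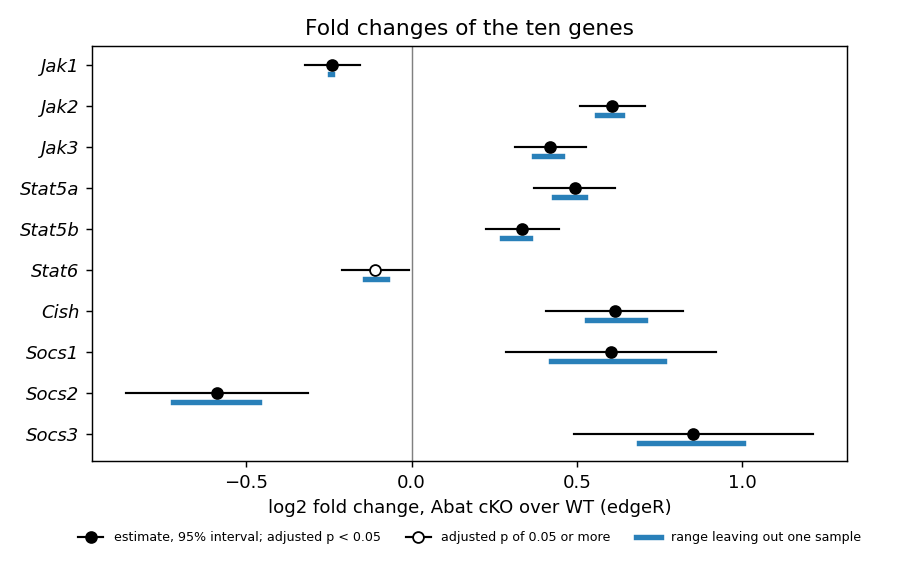
Log2 fold change of each gene, *Abat* cKO over WT, with its 95% interval from edgeR (black), and the range of the estimate when each of the 6 samples was left out in turn (blue). The 7 genes that rose and the 2 that fell stay on their side of 0, and *Stat6*, at -0.11, is the one drawn as an open point.

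Of the feedback inhibitors, *Cish*, *Socs1* and *Socs3* rose and *Socs2* fell. *Cish*, whose promoter window holds the pair of STAT motifs shown above, encodes CIS, an inhibitor that is a classical STAT5 target and acts on the IL-2 receptor and T cell receptor signalling. It lies at chr9:107296026-107302784 and had 122, 106 and 98.0 CPM in WT and 145, 172 and 183 CPM in *Abat* cKO. The groups did not overlap, and the samples spread more than those of the kinases, with a coefficient of variation of 11.4% in WT and 11.5% in *Abat* cKO. *Cish* rose 1.53-fold (95% interval 1.33 to 1.77, log2 fold change 0.61, standard error 0.09, edgeR adjusted p = 0.000679). Of the *Cish* exon bases, 11.5% overlap predicted genes on the other strand.

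*Socs1* encodes an inhibitor that binds JAK kinases directly and is best known for restraining IFN-γ signalling. It had 63.9, 55.3 and 39.0 CPM in WT and 72.8, 79.9 and 88.3 CPM in *Abat* cKO. The lowest value belonged to WT replicate 3, which put the WT coefficient of variation at 24.0%, the highest of the 10 genes. *Socs1* rose 1.52-fold (95% interval 1.22 to 1.90, log2 fold change 0.60, standard error 0.14, edgeR adjusted p = 0.00907), and without WT replicate 3 its log2 fold change was 0.42 (edgeR adjusted p = 0.00411). *Socs1*, at chr16:10782240-10785536, is the one member on the chromosome of *Abat*, 2.16 Mb from it. Of 10 tested genes that lie between them, 2 were called (20%), against 31.5% of all tested genes, and their median log2 fold change was -0.0054. The 2 were *Carhsp1* with a log2 fold change of 0.28 and *Ciita* with -1.16, both named after their values were seen.

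*Socs3* encodes the inhibitor of gp130, the shared receptor chain of IL-6 family cytokines, and lies at chr11:117966079-117970047. It had 27.5, 22.9 and 18.5 CPM in WT and 32.3, 42.4 and 50.1 CPM in *Abat* cKO. *Abat* cKO replicate 1 was only a little above the highest WT sample, and the other two cKO samples were well above it. *Socs3* had the largest rise of the 10 genes, 1.81-fold (95% interval 1.41 to 2.32, log2 fold change 0.85, standard error 0.16, edgeR adjusted p = 0.00268). Its estimate ran from 0.69 to 1.0 as each sample was left out.

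*Socs2*, an inhibitor best known for damping growth hormone signalling and also a STAT5 target, went the other way. At chr10:95385362-95417180, it had 21.0, 14.7 and 18.3 CPM in WT and 11.1, 12.3 and 12.4 CPM in *Abat* cKO. The lowest WT sample was above the highest cKO sample. *Socs2* fell by 33.5% (log2 fold change -0.59, standard error 0.12, edgeR adjusted p = 0.00467). It was the least abundant member in both genotypes, with 220 to 465 counts per library.

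Within the CIS and SOCS family, *Cish* took 28.1% ± 0.999 of the family's counts in WT and 33.5% ± 1.89 in *Abat* cKO, and *Socs2* 4.66% ± 0.726 and 2.41% ± 0.0688 (SD, n = 3). Neither share overlapped between the genotypes (exact permutation p = 0.1 each, two-sided, the smallest possible). Here too the shares are parts of a whole, so a rise of some lowers the rest. *Socs1* went from 13.5% ± 2.32 to 16.2% ± 0.497 and *Socs3* from 5.91% ± 0.705 to 8.32% ± 1.27 (SD, n = 3). *Socs4*, *Socs5* and *Socs6* were not called, and *Socs7* was called higher by 0.15 on the log2 scale (edgeR adjusted p = 0.0429), a call that was lost in 13 of 15 alternatives, without each single WT replicate among them.

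Other JAK and STAT genes were measured beside the 10. *Tyk2*, *Stat2* and *Stat4* were not called, the STAT genes with log2 fold changes of -0.22 each (edgeR adjusted p = 0.211 and 0.101). *Stat2* and *Stat4* were called lower once WT replicate 3 and *Abat* cKO replicate 1 were both left out, with log2 fold changes of -0.31 and -0.34 (edgeR adjusted p 0.00126 and 0.000427). Without WT replicate 3 alone, *Stat2* (-0.37, edgeR adjusted p = 0.00561) and *Stat4* (-0.32, edgeR adjusted p = 0.00619) were called lower. *Stat3*, the STAT of IL-6 and IL-21, is uncertain. It is the 1 gene whose deposited raw and normalized counts disagree, and for *Abat* cKO replicate 3 the table gives 5615 raw counts where the normalized value implies 4359. Its log2 fold change was -0.11 from the raw counts (edgeR adjusted p = 0.275) and -0.23 from the implied counts (edgeR adjusted p = 0.00568). Raw and normalized counts of the 10 members did not disagree in any sample, within 0.1%.

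Of 12 cytokine genes listed, 4 reached 10 counts in each of the 6 samples, and 3 of these rose when that was required. With edgeR's default filter, 18.1% of all tested genes were higher. With at least 10 counts required in every sample, 2233 genes were higher and 1853 lower, and their share was not computed. *Il2*, the main ligand of the STAT5 pathway in activated T cells, went from 17.6 ± 1.87 to 50.9 ± 2.68 CPM (SD, n = 3, log2 fold change 1.53, edgeR adjusted p = 3.88e-07). *Osm*, an IL-6 family cytokine and a STAT5 target, rose by 0.80 on the log2 scale. *Il4*, *Il13* and *Il21* passed edgeR's default filter only through the cKO samples, where they are high, and their calls are therefore no support for a rise of the list. *Il4* had 6, 4 and 2 counts in WT and 28, 34 and 34 in *Abat* cKO, and *Il21* had 14, 15 and 4 counts in WT and 619, 949 and 1583 in *Abat* cKO.

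Of 17 tested receptor genes, 6 rose, 4 fell and 7 did not pass, with a median log2 fold change of 0.19. Over all tested genes, 18.1% were higher and 13.4% lower. With spike-in scaling, and likewise with the replicate block, 2 receptor genes were called lower. *Il2ra*, the high-affinity chain of the IL-2 receptor and itself a STAT5 target, rose from 770.1 ± 50.03 to 1135 ± 50.5 CPM (SD, n = 3, log2 fold change 0.56, edgeR adjusted p = 3.28e-05). *Il4ra*, which pairs with the common γ chain to bind IL-4, rose by 0.65 on the log2 scale, and *Il12rb1* by 0.60. *Il2rg*, the common γ chain, had a log2 fold change of -0.16 (edgeR adjusted p = 0.033), a call lost with spike-in scaling (edgeR adjusted p = 0.235), with the replicate block (0.0529) and without WT replicate 1 (0.148), WT replicate 2 (0.116), *Abat* cKO replicate 2 (0.0626) or *Abat* cKO replicate 3 (0.09). *Il2rb* and *Il7r* did not pass, at 0.22 and 0.30. *Il6st*, which encodes gp130, fell by 0.59 on the log2 scale (edgeR adjusted p = 0.000114).

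Among 14 tested other inhibitors, 5 rose, 3 fell and 6 did not pass, a median log2 fold change of 0.013. Over all tested genes, 18.1% were higher and 13.4% lower. *Ptpn2* and *Ptpn1*, phosphatases that act on JAK kinases and STATs, rose by 0.39 and 0.32 on the log2 scale. *Ptprc*, which encodes the phosphatase CD45, went from 2430 ± 55.8 to 1897 ± 59.3 CPM (SD, n = 3), a log2 fold change of -0.36 (edgeR adjusted p = 6.83e-05). *Pias1*, an inhibitor of STAT activity, was at -0.24. Scaled to the spike-in controls, 1 of these genes was called higher and 1 lower.

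Genes listed as STAT5 targets moved both ways. Of 14 tested, 8 rose, 2 fell and 4 did not pass, beside 18.1% higher and 13.4% lower over all tested genes. The list's median log2 fold change was 0.31. *Pim1*, a survival kinase, rose from 202 ± 24.8 to 360 ± 29.4 CPM (SD, n = 3, log2 fold change 0.83, edgeR adjusted p = 5.36e-05), and *Prdm1*, which encodes the repressor Blimp-1, rose by 2.47 on the log2 scale from a low level of 0.824 CPM. *Ccnd2*, a cyclin of G1 phase, went from 1982 ± 100.2 to 1083 ± 10.53 CPM (SD, n = 3), a log2 fold change of -0.87 (edgeR adjusted p = 3.41e-07). *Pim2* fell too, by 0.45 on the log2 scale. Of the 4 genes listed as repressed by IL-2 and STAT5, *Il6st* and *Il6ra* fell, and *Bcl6* and *Il7r* did not pass.

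Of 8 tested STAT6 target genes, 7 rose, *Il4* among them, beside 18.1% of all tested genes. Of the 7 with at least 10 counts in every sample, 6 rose under that filter, while *Stat6* itself was not called higher in any setting. Over all genes, that filter called 2233 higher, a share that was not computed. *Gata3*, the regulator of the TH2 program, had a log2 fold change of 2.40, and the chemokine receptor genes *Ccr4* and *Ccr8* had 2.06 and 2.02. *Nfil3*, a transcription factor, went from 7.31 ± 0.202 to 42.0 ± 10.8 CPM (SD, n = 3, log2 fold change 2.52, edgeR adjusted p = 3.03e-06). The list's median log2 fold change was 2.04, against 0.0046 over all genes tested, with *Il4* included, which passed the filter only through the cKO samples. The list was chosen with earlier results of these data known, so its median is no support for a rise of the list. Some genes stand in more than 1 list. Counted once and without the 10 members, 59 of 67 genes passed the filter, of which 27 rose and 9 fell, the 3 cytokine genes that passed only through the cKO samples included. The shares over all tested genes were 18.1% higher and 13.4% lower.

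**Figure D4:**
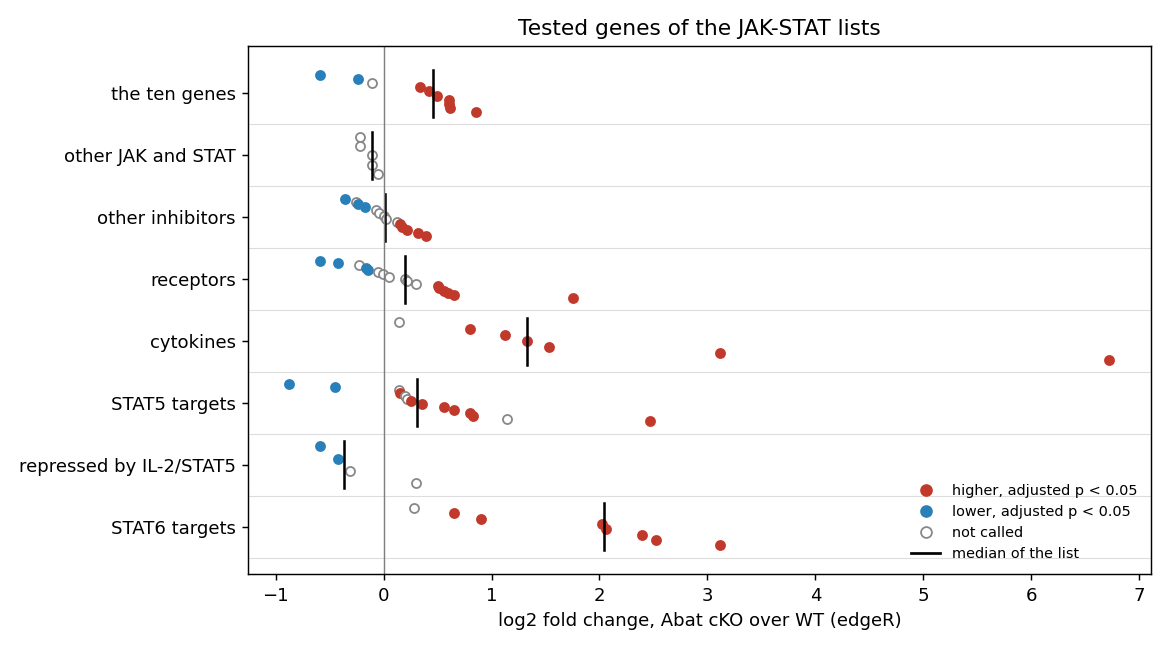
Log2 fold change, *Abat* cKO over WT, of every tested gene in each list, 1 point per gene, with a vertical line at each list's median. Called genes are red where higher and blue where lower, and the medians run from -0.37 for genes repressed by IL-2 and STAT5 to 2.04 for STAT6 targets. Cytokine genes that passed the filter only through the cKO samples are included.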

How the data were processed

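The labels describe total RNA of 3 WT and 3 *Abat* cKO samples, and the supplementary methods depletion of ribosomal RNA and paired 150-base reads. The authors deposited raw counts per gene, whole numbers, and normalized counts, a signal in which each sample's raw counts were divided by its own size factor. TopHat2 and HTSeq on GRCm38 appear in the supplementary methods, STAR and RSEM in the submitters' processing notes, so the counter is not settled. The deposited gene length equals the longest transcript for all 10 members. The authors' fold changes, p-values and group means were not used here.

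Raw counts without 92 spike-in controls were fitted in edgeR 4.0.16 (R 4.3.3) for genotype alone, with TMM scaling, edgeR's default filter, the quasi-likelihood test and Benjamini-Hochberg adjustment over all 13605 genes tested. CPM is relative to the TMM-scaled library size. The biological coefficient of variation was 0.0589. Depth was 19566016 to 24396746 counts per sample. The samples are called independent biological samples by the study. As the chi-square of counts per degree of freedom, the difference was 2.14 between WT replicates 1 and 2 and 2.48 between *Abat* cKO replicates 2 and 3. Pairs within a genotype that held WT replicate 3 or *Abat* cKO replicate 1 gave 6.21 to 9.46. Whether the closer samples share a source was not tested. Coordinates and exon lengths came from GENCODE M21 (GRCm38), promoters from RefSeq (GRCm38.p6).

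Members and lists were chosen with earlier results of these data known. Named are all members, a fixed set of JAK-STAT genes, *Abat*, and the genes of each list that rank first by adjusted p, at most 4, plus 1 that moved oppositely. Alternatives were edgeR with DESeq2's size factors, library size alone, spike-in scaling, DESeq2 1.42.0, other filters, a replicate block, left-out samples and a test against a 1.5-fold change.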

Additional observations from a re-analysis of the deposited data

How the results depend on the processing

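All 9 calls among the 10 genes held, in their direction, with each of the 6 samples left out in turn, with DESeq2, with DESeq2's size factors in edgeR, with library size alone, with both other filters and with WT replicate 3 and *Abat* cKO replicate 1 both left out. Scaled to the spike-in controls, *Jak1* (-0.29) and *Stat5b* (0.29) did not pass, and over all genes 1339 were higher and 1185 lower. Of the genes in the other lists, 5 were then called lower. Leaving out 1 sample moved *Stat6* between -0.139 and -0.0745, never called. *Stat6* was called at -0.14 with library size alone and at -0.10 without those 2 samples. The cause of these shifts was not tested. Against a 1.5-fold change, which calls fewer genes by construction, 436 genes were higher and 188 lower, 10 and 1 of the other lists, and *Jak1* (-0.24), *Jak2* (0.61), *Jak3* (0.42), *Stat5a* (0.49), *Stat5b* (0.34), *Cish* (0.61), *Socs1* (0.60), *Socs2* (-0.59) and *Socs3* (0.85) did not pass. *Socs7* lost its call in 13 of 15 alternatives (edgeR and DESeq2 adjusted p from 0.0486 to 1). Leaving out 1 sample gave 1911 to 2507 genes higher and 1279 to 2033 lower. Same-numbered samples correlated at -0.29, 0.12 and -0.28 in their deviations from the group means, and WT replicate 3 and *Abat* cKO replicate 1 at 0.376. With 3 samples a group, these correlations cannot decide whether the samples were paired. With the replicate block, 2028 genes were higher and 1416 lower, and no call among the 10 genes changed. The wider STAT palindrome was found in 0 member promoters against 2 with the narrower one. With 3 samples a group, exact tests over samples cannot go below 0.1, and *Il4*, *Il21* and *Prdm1* are below 1 CPM in WT, where counting error is large.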
